A study of Mus musculus with 6 samples.

Results

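The genes described here are 7 receptors that guide T cells into, through and out of lymphoid organs: Ccr7, Selplg, Cxcr5, Gpr183, Cxcr4, S1pr1 and S1pr4. They were taken by name, with every probe set that the platform annotation assigns to them, which gave 8 probe sets (2 for Gpr183, 1 for each of the others) of 45101 on the array. All 8 passed the filter on dim probe sets, which kept 23484 probe sets and 11019 genes. By symbol they are Ccr7 (1423466_at), Selplg (1449127_at), Cxcr5 (1422003_at), Gpr183 (1437356_at and 1457691_at), Cxcr4 (1448710_at), S1pr1 (1423571_at) and S1pr4 (1451024_at). The data are Affymetrix Mouse430_2 arrays of 3 T cell populations, 2 arrays (replicate pools 1 and 2) of each.

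The ex-iTreg cells carried Thy1.1, the surface allele that marks cells of induced origin, and no longer showed EGFP, the reporter for the Treg cell factor Foxp3. The iTreg cells carried Thy1.1 and still showed EGFP. The nTreg cells, of natural origin, showed EGFP and lacked Thy1.1. All 3 were wild-type CD4 T cells recovered 125 days after nTreg cells and 500000 iTreg cells made in culture had been given together to BALB/c Rag1-/- hosts, which have no T or B cells of their own but keep myeloid cells. The labels' treatment protocol describes recipients of such transfers as mice with colitis. Cells came from spleen and mesenteric lymph nodes of 14 mice and were pooled, so that an array holds both organs and several animals. The labels do not say that the 2 pools of a group held different mice, and p-values therefore measure no more than the scatter of these pools, possibly technical scatter.

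As background, Ccr7 follows the chemokines of the T cell zone, and Selplg (PSGL-1) binds selectins on vessel walls once it has been decorated with sugars. Cxcr5 draws cells into B cell follicles, and Gpr183 (EBI2) senses oxysterols and places cells at the edge of the follicle and in the outer T cell zone. Cxcr4 answers Cxcl12, a chemokine of stromal and bone marrow niches. S1pr1 senses sphingosine-1-phosphate and lets lymphocytes leave lymphoid tissue, whereas S1pr4 is a related receptor of haematopoietic cells.

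The receptors did not move as a block. On the probe set with the highest mean per gene, Gpr183, Cxcr5 and S1pr1 were highest in ex-iTreg arrays, Ccr7, Selplg and S1pr4 in iTreg arrays, and Cxcr4 in nTreg arrays. The widest span belonged to Gpr183, at 1.35 log2 units between group means, and the narrowest to Ccr7, at 0.57. Values are RMA log2 expression as deposited. A difference is given on that scale ± the standard error that limma estimates, and every adjusted p is limma's, with Benjamini-Hochberg adjustment over the 23484 probe sets and a threshold of 0.05. Levels of different probe sets are not compared, because each has its own probes.

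**Figure D1:**
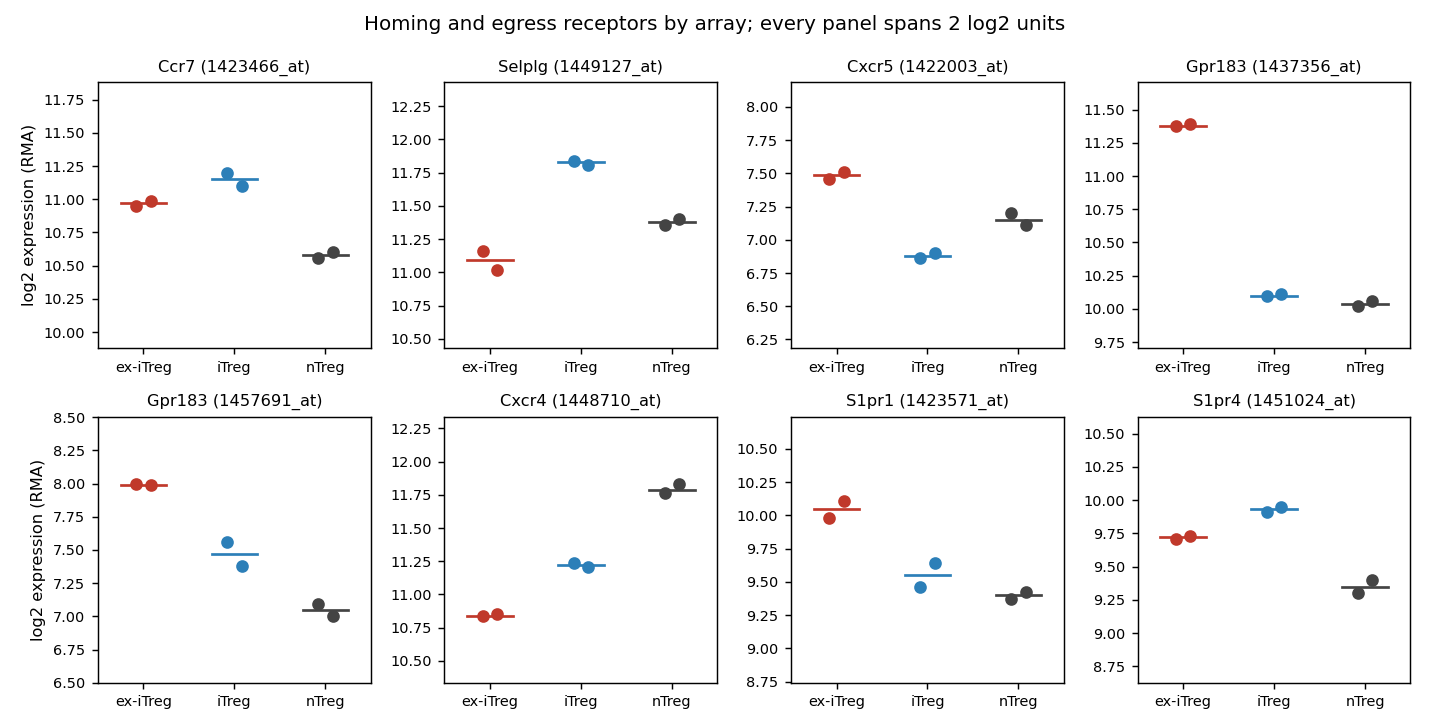
Each panel plots 1 probe set, with log2 expression (RMA) on the vertical axis, the 3 sorted populations on the horizontal axis, 1 point per array and a line at the mean of the 2 arrays; every panel spans 2 log2 units. The ex-iTreg arrays sit highest for Gpr183, Cxcr5 and S1pr1, the iTreg arrays for Ccr7, Selplg and S1pr4, and the nTreg arrays for Cxcr4.

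RefSeq promoter entries (GRCm38.p6) were matched for 3 of the 7 receptors, Gpr183, Cxcr4 and S1pr4. The 250 bases before the gene start are shown for Gpr183 and Cxcr4, because these had the largest difference upward and the largest downward in ex-iTreg relative to nTreg arrays. The Gpr183 stretch is chr14:121965194-121965443 and the Cxcr4 stretch chr1:128592300-128592549, both on the minus strand and written 5′ to 3′. Capitals mark matches on either strand to a TATA box (TATAAA), a GC box (GGGCGG), the core bound by KLF factors (CACCC) or the core bound by FOXO factors (GTAAACA).
Gpr183: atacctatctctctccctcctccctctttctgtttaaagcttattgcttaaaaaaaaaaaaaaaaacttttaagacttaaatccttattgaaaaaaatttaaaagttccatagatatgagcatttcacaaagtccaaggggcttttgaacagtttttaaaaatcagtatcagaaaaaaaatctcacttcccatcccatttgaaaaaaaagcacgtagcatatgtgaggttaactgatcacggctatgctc
Cxcr4: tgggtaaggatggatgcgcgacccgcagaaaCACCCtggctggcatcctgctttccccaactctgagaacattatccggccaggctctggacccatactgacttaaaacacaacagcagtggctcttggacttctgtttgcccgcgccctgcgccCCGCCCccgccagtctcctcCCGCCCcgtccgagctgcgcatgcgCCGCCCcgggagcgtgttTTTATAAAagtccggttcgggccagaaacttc
The Cxcr4 stretch held a TATA box 30 bases before the start, with an overlapping match on the other strand, and also 3 GC boxes and 1 KLF core. The Gpr183 stretch held none of the 4 motifs. Its GC content was 32.0%, that of Cxcr4 61.2%, and the median over 32841 mouse promoter windows of the same length 52.4%. Of those windows, 12.4% held the TATA box, 32.7% the GC box, 52% the KLF core and 3.17% the FOXO core. These matches describe the letters only.

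The sorted populations were checked first against markers of their labels. The summed linear level of 9 T cell markers lay between 37400 and 40000 in all 6 arrays. Single markers still differed. In ex-iTreg relative to nTreg arrays 3 of the 9 were called higher and 4 lower (37.4% of all genes called). Relative to iTreg arrays 1 was higher and 2 lower (36.6% called). In iTreg relative to nTreg arrays 2 were higher and 0 lower (29.1% called). Foxp3, which defines the EGFP gate, has 1 annotated probe set. Its 6 readings, 3.99 to 4.29, lay below the filter level of 5.48 and gave no check of the gate. All 6 other Treg cell markers were lower in ex-iTreg than in iTreg arrays and lower than in nTreg arrays, among them Il2ra, encoding CD25, at 6.77 in ex-iTreg, 9.95 in iTreg and 10.02 in nTreg arrays. Within a group the arrays correlated at r = 0.9957 or more over all probe sets, between groups at 0.9787 or less. The mean of 12 poly-A control probe sets, spiked into the RNA, differed between groups, at 9.28 and 9.41 in ex-iTreg, 12.21 and 12.18 in iTreg and 10.67 and 10.79 in nTreg arrays.

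The first question was what set ex-iTreg cells, induced but no longer reporting Foxp3, apart from natural Treg cells. In ex-iTreg relative to nTreg arrays all 7 receptors passed the test, where 37.4% of all genes did. Gpr183, S1pr1, Ccr7, S1pr4 and Cxcr5 were higher (18.4% of all genes were called higher), and Cxcr4 and Selplg were lower (19% called lower). The median of the 7 differences was 0.38, beside 0.03 over all genes. Of the 7 only Gpr183 reached a 2-fold difference, and it was called at 2-fold or more higher as were 1.98% of all genes (3.85% were 2-fold or more lower). The pools did not overlap for any of the 7, as held for 71.1% of all genes.

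The second question was what separated induced cells without the reporter from those that kept it. In ex-iTreg relative to iTreg arrays 6 of the 7 passed, beside 36.6% of all genes. Gpr183, Cxcr5 and S1pr1 were higher (15.6% of all genes called higher), and Selplg, Cxcr4 and S1pr4 were lower (21% called lower). The median was -0.17, beside -0.02 over all genes. Gpr183 was again the only one past 2-fold, where 1.36% of all genes were 2-fold or more higher and 2.18% lower. The pools of all 7 were separate, as were those of 72.8% of all genes.

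The third question was whether induced and natural Treg cells, both reporter-positive, differed in these receptors. In iTreg relative to nTreg arrays 5 of the 7 passed, beside 29.1% of all genes. S1pr4, Ccr7 and Selplg were higher (16.4% called higher), and Cxcr4 and Cxcr5 were lower (12.7% called lower). The median was 0.15, beside 0.04 over all genes. No receptor reached 2-fold, where 0.88% of all genes were 2-fold or more higher and 1.38% lower. The 3 comparisons share arrays in pairs, so their differences for a gene are not independent of each other.

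**Figure D2:**
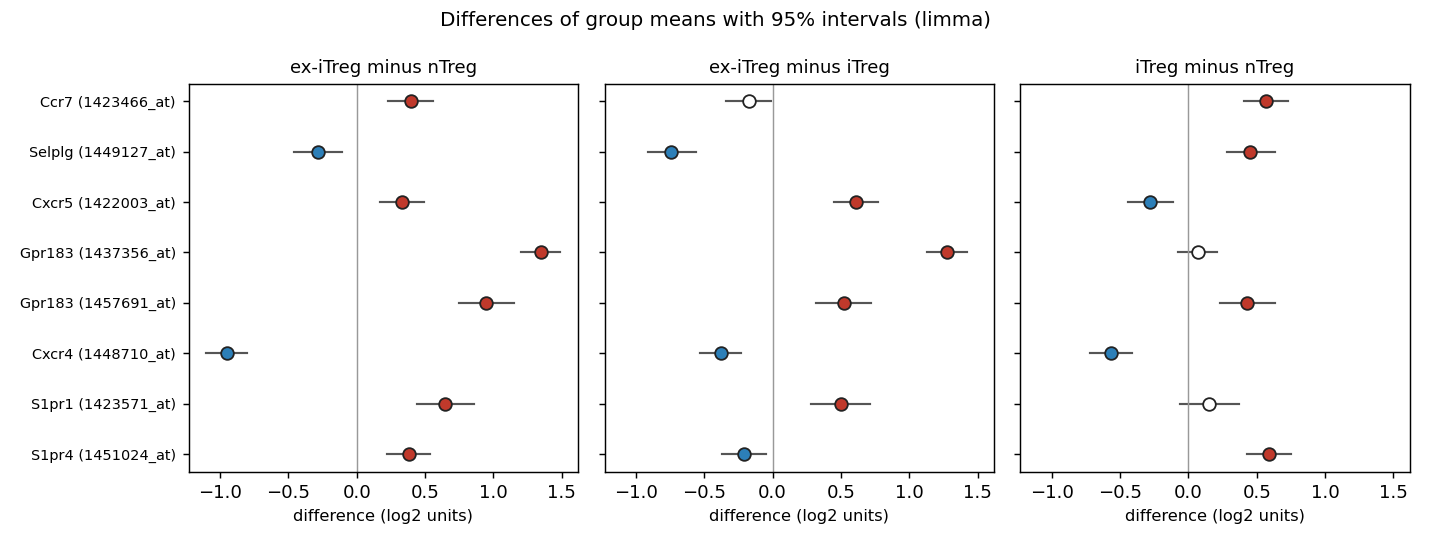
Differences of group means (horizontal axis, log2 units) with 95% intervals from limma for the 8 probe sets, 1 panel per comparison; red points were called higher, blue points lower, and open points did not pass at an adjusted p of 0.05. Gpr183 on its brighter probe set lies at 1.35 and 1.28 in the panels of ex-iTreg and at 0.07 in iTreg minus nTreg, and Cxcr4 lies below 0 in all 3 panels.

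Gpr183, the oxysterol receptor, had the largest difference of the 7. Its brighter probe set, 1437356_at, read 11.38 and 11.39 in ex-iTreg arrays, 10.10 and 10.11 in iTreg arrays and 10.02 and 10.06 in nTreg arrays. The ex-iTreg arrays stood apart, and the iTreg and nTreg arrays lay within 0.1 of each other without overlapping. The ex-iTreg level was 2.54-fold that of nTreg (1.35 ± 0.06, adjusted p = 2.18e-05, limma) and 2.42-fold that of iTreg (1.28 ± 0.06, adjusted p = 4.95e-05, limma). iTreg minus nTreg was 0.07 ± 0.06, with a 95% interval from -0.08 to 0.21 (adjusted p = 0.445, limma).

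The dimmer Gpr183 probe set, 1457691_at, read 8 and 7.99 in ex-iTreg arrays, 7.56 and 7.38 in iTreg arrays and 7.09 and 7 in nTreg arrays. It gave the same order of groups but spaced them differently, with iTreg between the other two. On it ex-iTreg exceeded iTreg by 0.52 ± 0.08 (adjusted p = 0.00418, limma) and iTreg exceeded nTreg by 0.43 ± 0.08 (adjusted p = 0.0117, limma); without iTreg pool 1 the second was 0.34 (adjusted p = 0.0547, in a range from 0.00287 to 0.0547). Whether Gpr183 differed between iTreg and nTreg therefore depends on the probe set, while the higher ex-iTreg level does not. In bulk RNA more cells with a transcript and more transcript per cell cannot be told apart, here and for the other receptors.

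Of the enzymes that make and clear the Gpr183 ligand, Ch25h, which starts its synthesis, read between 4.48 and 4.66 in all 6 arrays, and it and Cyp7b1 stayed below the filter. Hsd3b7, the enzyme that degrades the ligand, was lower in ex-iTreg arrays, at 5.26 and 5.26, against 6.34 and 6.17 in iTreg and 6.85 and 6.78 in nTreg arrays. Its difference was -0.99 ± 0.08 in ex-iTreg minus iTreg (adjusted p = 0.00034, limma) and -1.56 ± 0.08 in ex-iTreg minus nTreg (adjusted p = 3.33e-05, limma). The ex-iTreg mean lies under the filter level of 5.48, so the sizes of these differences are not resolved. Cyp27a1, a sterol hydroxylase, passed in none of the 3 comparisons.

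The likeness of other genes to Gpr183 was measured as the root mean square distance over the 6 arrays, after each probe set's own mean was taken off. The 3 nearest genes were Slco3a1, an organic anion transporter, Kif1b, a kinesin motor, and Commd8, a COMMD family protein, at distances of 0.0416, 0.053 and 0.0591 log2 units. Slco3a1 averaged 9.26 in ex-iTreg, 8.04 in iTreg and 7.99 in nTreg arrays. The other receptors spanned less than 1 log2 unit and were not searched for such genes.

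Cxcr5, the follicle homing receptor, also peaked in ex-iTreg arrays, with a different order below them. It read 7.46 and 7.51 in ex-iTreg, 6.86 and 6.90 in iTreg and 7.20 and 7.11 in nTreg arrays, with no overlap between any groups. ex-iTreg exceeded iTreg by 0.61 ± 0.07 (1.52-fold, adjusted p = 0.00113, limma) and nTreg by 0.33 ± 0.07 (adjusted p = 0.01, limma). iTreg minus nTreg was -0.28 ± 0.07 (adjusted p = 0.0255, limma). That last call was lost in 7 of 14 alternative analyses. Among them was the fit of only the 4 arrays of the 2 groups (adjusted p = 0.0526, limma), which the refits without either ex-iTreg pool merely repeat. The difference was -0.23 without nTreg pool 1, -0.25 without iTreg pool 1 and -0.30 without iTreg pool 2, where the call was lost too. The call against nTreg was lost without ex-iTreg pool 2 (0.31).

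Follicular helper T cells are the helper type best known for Cxcr5. Among 12 tested genes of these cells, 7 were higher and 2 lower in ex-iTreg relative to iTreg arrays (36.6% of all genes called). Against nTreg arrays, 7 were higher and 4 lower (37.4% called). In iTreg relative to nTreg arrays 2 were higher and 5 lower (29.1% called). Il21 and Pou2af1 exceeded the filter level only in ex-iTreg arrays, so the filter let them in only where they were high. Bcl6, the factor that drives this fate, averaged 9.28 in ex-iTreg, 7.75 in iTreg and 8.47 in nTreg arrays, the order seen for Cxcr5. Its difference was 1.53 ± 0.07 in ex-iTreg minus iTreg (adjusted p = 4.11e-05, limma) and -0.73 ± 0.07 in iTreg minus nTreg (adjusted p = 0.00098, limma), the second not called on its other probe set (0.03, adjusted p = 0.836, limma). Tox2, a factor of the same cells, followed that order as well, at 11.20 in ex-iTreg, 9.36 in iTreg and 10.09 in nTreg arrays. Pdcd1, encoding PD-1, did not: it averaged 6.76 in ex-iTreg, 6.93 in iTreg and 8.75 in nTreg arrays. Ascl2, an inducer of Cxcr5, stayed below the filter. Il21, the cytokine of these cells, averaged 8.86 in ex-iTreg arrays, against 4.07 in iTreg and 3.59 in nTreg arrays, both under the filter level.

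B cells also express Cxcr5, Gpr183 and Cxcr4. Of 10 B cell markers with a probe set, 7 were below the filter level in all 6 arrays, Cd79a and Pax5 among them. The summed linear level of the 10 was 273 and 290 in ex-iTreg, 366 and 340 in iTreg and 498 and 519 in nTreg arrays. The sum was lowest in ex-iTreg arrays, where Gpr183 and Cxcr5 were highest. It was highest in nTreg arrays, as Cxcr4 was, and lower in iTreg than in nTreg arrays, as Cxcr5 was. The part of these markers in the results on the 3 receptors was not tested. Cd79b, a B cell receptor chain, averaged 4.65 in ex-iTreg, 6.47 in iTreg and 7.66 in nTreg arrays.

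Cxcr4, the receptor for Cxcl12, was lowest in ex-iTreg arrays, with iTreg arrays in between and nTreg arrays highest. It read 10.84 and 10.85 in ex-iTreg, 11.24 and 11.21 in iTreg and 11.76 and 11.83 in nTreg arrays, with no overlap. ex-iTreg was 1.93-fold lower than nTreg (-0.95 ± 0.06, adjusted p = 0.000112, limma) and 1.3-fold lower than iTreg (-0.38 ± 0.06, adjusted p = 0.00527, limma), and iTreg was 1.48-fold lower than nTreg (-0.57 ± 0.06, adjusted p = 0.00183, limma). Each neighbouring pair in that order passed in every alternative analysis that kept all pools of its groups. With 1 array left out, ex-iTreg minus iTreg ran from -0.4 to -0.36 and iTreg minus nTreg from -0.6 to -0.53. The transcripts of Cxcl12 itself and of Ackr3, an atypical receptor for it, stayed below the filter, as did Cxcl13, the Cxcr5 ligand.

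S1pr1, the main exit receptor, was highest in ex-iTreg arrays. It read 9.98 and 10.11 in ex-iTreg, 9.46 and 9.64 in iTreg and 9.37 and 9.42 in nTreg arrays. ex-iTreg exceeded nTreg by 0.65 ± 0.09 (1.57-fold, adjusted p = 0.00211, limma) and iTreg by 0.50 ± 0.09 (1.41-fold, adjusted p = 0.00673, limma). The pools of iTreg and nTreg did not overlap, as was true of 68% of all genes in that comparison. Their difference of 0.15 ± 0.09 did not pass (95% interval from -0.06 to 0.37, adjusted p = 0.241, limma), so their order is not settled.

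Markers of CD8 T and NK cells were also highest in ex-iTreg arrays, as S1pr1, Gpr183 and Cxcr5 were, although the cells had been sorted as CD4-positive. The 6 genes of that list summed to a linear level of 979 and 936 in ex-iTreg, 280 and 305 in iTreg and 379 and 347 in nTreg arrays. Of the 5 tested, 4 were higher and 1 lower in ex-iTreg relative to iTreg arrays (36.6% of all genes were called). Relative to nTreg arrays 3 were higher and 1 lower (37.4% called). Klrk1, 1 of the 5, exceeded the filter level only in ex-iTreg arrays. The NK receptor genes Klrd1 and Klrk1 averaged 8.51 and 7.81 in ex-iTreg, 5.51 and 4.67 in iTreg and 4.6 and 4.5 in nTreg arrays. Cd8b1, a CD8 chain, went the other way, at 5.27 in ex-iTreg, 6.02 in iTreg and 7.11 in nTreg arrays, and Ncr1, which marks NK cells, was below the filter level throughout. The part of these markers in the results on the 3 receptors was not tested.

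S1pr4, the sphingosine-1-phosphate receptor related to S1pr1, had another profile than S1pr1. It read 9.71 and 9.73 in ex-iTreg, 9.91 and 9.95 in iTreg and 9.30 and 9.40 in nTreg arrays. Both populations of induced origin lay above nTreg, iTreg by 0.59 ± 0.07 (1.5-fold, adjusted p = 0.00195, limma) and ex-iTreg by 0.38 ± 0.07 (1.3-fold, adjusted p = 0.00619, limma). ex-iTreg minus iTreg was -0.21 ± 0.07 (adjusted p = 0.0498, limma), a call at the edge of the threshold. It was lost in 7 of 14 alternative analyses, where the adjusted p ran from 0.00836 to 0.183, and among them were those without iTreg pool 1 (0.118), iTreg pool 2 (0.18), ex-iTreg pool 1 (0.183) or ex-iTreg pool 2 (0.153).

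A further list held genes that sense, make or clear sphingosine-1-phosphate, together with Cd69 and signalling genes such as Arhgef1. Of its 10 tested genes, 1 was higher and 4 were lower in ex-iTreg relative to iTreg arrays. Their median was -0.25, and 36.6% of all genes were called there. Against nTreg arrays, 0 were higher and 2 lower (37.4% of all genes called). Sgpl1, the lyase that destroys the lipid, was lower in ex-iTreg arrays (-0.63 ± 0.07 against iTreg, adjusted p = 0.00116; -0.45 ± 0.07 against nTreg, adjusted p = 0.00369, limma). Arhgef1, a guanine nucleotide exchange factor downstream of such receptors, was lower in ex-iTreg than in iTreg arrays by a difference of -0.51 ± 0.09 (adjusted p = 0.0054, limma), but its other probe set gave 0.17 (adjusted p = 0.175, limma). Cd69, which pulls S1pr1 from the cell surface, read 11.94 and 12.09 in ex-iTreg, 12.14 and 12.10 in iTreg and 11.99 and 11.95 in nTreg arrays. It passed in none of the 3 comparisons (adjusted p = 0.35, 0.658 and 0.191 for ex-iTreg minus iTreg, ex-iTreg minus nTreg and iTreg minus nTreg, limma). S1pr2, a receptor that holds cells in place, did not pass on its brighter probe set, while the dimmer one gave -0.68 ± 0.07 in ex-iTreg minus iTreg (adjusted p = 0.00101, limma). S1pr3 and S1pr5 stayed below the filter.

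Klf2, a factor known to switch on S1pr1, had its highest level in ex-iTreg arrays and its lowest in nTreg arrays, but passed in different comparisons from S1pr1. It read 12.53 and 12.50 in ex-iTreg, 12.23 and 12.38 in iTreg and 11.81 and 11.83 in nTreg arrays. ex-iTreg exceeded nTreg by 0.69 ± 0.07 (adjusted p = 0.000733, limma) and iTreg exceeded nTreg by 0.48 ± 0.07 (adjusted p = 0.00529, limma), whereas ex-iTreg minus iTreg was 0.21 ± 0.07 and did not pass (adjusted p = 0.068, limma). Foxo1, which acts upstream of Klf2 and Ccr7, ran the other way, at 11.06 and 10.94 in ex-iTreg, 11.40 and 11.35 in iTreg and 11.68 and 11.56 in nTreg arrays. Its difference was -0.62 ± 0.08 in ex-iTreg minus nTreg (adjusted p = 0.00145, limma), and its 2 other probe sets were lower there too (-0.52 and -0.67, adjusted p = 0.00142 and 0.000546, limma). In iTreg minus nTreg the Foxo1 difference was -0.25 and did not pass (adjusted p = 0.0553, limma). The other probe sets gave 0.14 and -0.28 there (adjusted p = 0.147 and 0.0219, limma), so the order of iTreg and nTreg is not settled.

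The 14 tested transcription factors linked to homing receptor genes split. In ex-iTreg relative to nTreg arrays 7 were higher and 4 lower (37.4% of all genes were called). Relative to iTreg arrays 5 were higher and 5 lower (36.6% called). In iTreg relative to nTreg arrays 5 were higher and 3 lower (29.1% called). Prdm1, encoding the repressor Blimp-1, had the largest difference of the list, at 6.66 in ex-iTreg, 8.77 in iTreg and 9.56 in nTreg arrays (-2.90 ± 0.07 in ex-iTreg minus nTreg, adjusted p = 2.36e-06, limma). The helix-loop-helix inhibitors Id2 and Id3 diverged in ex-iTreg minus iTreg, at 1.25 ± 0.08 and -1.30 ± 0.09 (adjusted p = 0.000139 and 0.000187, limma).

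Ccr7, the T zone receptor, was lowest in nTreg arrays. It read 10.95 and 10.99 in ex-iTreg, 11.20 and 11.10 in iTreg and 10.56 and 10.60 in nTreg arrays. iTreg exceeded nTreg by 0.57 ± 0.07 (1.48-fold, adjusted p = 0.00221, limma), and ex-iTreg exceeded nTreg by 0.40 ± 0.07 (1.32-fold, adjusted p = 0.00527, limma). The difference between the induced populations, -0.17 ± 0.07 in ex-iTreg minus iTreg with an interval from -0.34 to -0.01, did not pass (adjusted p = 0.09, limma). It passed in 1 of 14 alternative analyses, that with an intensity trend (adjusted p = 0.00767, in a range from 0.00767 to 0.323).

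Selplg was the receptor that separated the induced populations most in the downward direction. It read 11.16 and 11.02 in ex-iTreg, 11.84 and 11.81 in iTreg and 11.36 and 11.40 in nTreg arrays. ex-iTreg was 1.66-fold lower than iTreg (-0.74 ± 0.07, adjusted p = 0.000724, limma), and iTreg was 1.37-fold higher than nTreg (0.45 ± 0.07, adjusted p = 0.00636, limma). ex-iTreg minus nTreg was -0.28 ± 0.07 (adjusted p = 0.024, limma). That call was lost in 4 of 14 alternative analyses (adjusted p from 0.000128 to 0.137), among them those without ex-iTreg pool 2 (adjusted p = 0.137), nTreg pool 1 (0.0552) or nTreg pool 2 (0.0822).

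Myeloid cells also carry Selplg and S1pr4, and their markers peaked in the same population. The summed linear level of 10 myeloid markers was 2950 and 2930 in ex-iTreg, 4570 and 4540 in iTreg and 2430 and 2300 in nTreg arrays. Of the 9 tested, 7 were higher in iTreg than in nTreg arrays and 0 lower (29.1% of all genes were called). In ex-iTreg relative to iTreg arrays 7 were lower and 0 higher (36.6% called). Relative to nTreg arrays 5 were higher and 0 lower (37.4% called). The myeloid sum had the order of S1pr4 and Ccr7. Itgam was below the filter level in all 6 arrays. The 6 neutrophil markers summed to 6290 and 6170 in ex-iTreg, 8920 and 9690 in iTreg and 7560 and 7530 in nTreg arrays, the order of Selplg. The poly-A controls had that order too. The part of these markers and controls in the Selplg, S1pr4 and Ccr7 results was not tested.

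**Figure D3:**
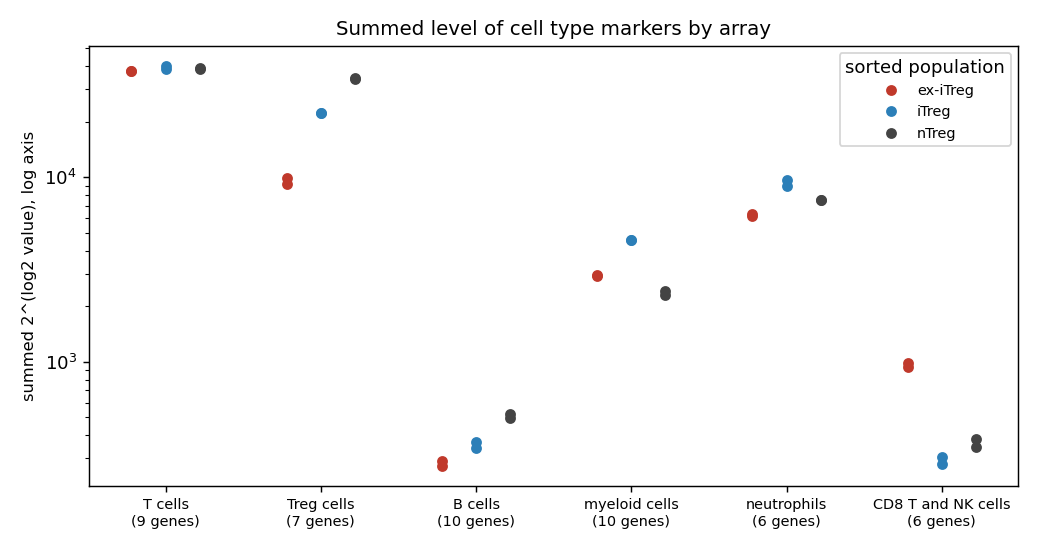
Summed level of the markers of 6 cell types, as the sum over genes of 2 to the power of the log2 value, on a log axis, with 1 point per array and the populations ordered ex-iTreg, iTreg and nTreg within each cell type. The sum of T cell markers is level, although single markers differ. The Treg and B cell sums are lowest in ex-iTreg arrays. Myeloid and neutrophil sums are highest in iTreg arrays, and that of the CD8 T and NK cell list is highest in ex-iTreg arrays.

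A list for PSGL-1 held enzymes that glycosylate or sulfate it, and also Ezr and Msn, which do neither. Of its 13 tested genes, 1 was higher and 0 lower in ex-iTreg relative to iTreg arrays (36.6% of all genes were called). In ex-iTreg relative to nTreg arrays 3 were higher and 1 lower (37.4% of all genes called), and in iTreg relative to nTreg arrays 3 were higher and 1 lower (29.1% called). These counts take each gene's brightest probe set. St3gal6, a sialyltransferase named here after its values were seen, passed in none of the comparisons on that probe set. Its 3 others were all higher in ex-iTreg arrays, by 1.99 to 2.63 against iTreg and by 2.95 to 3.89 against nTreg (adjusted p of at most 0.000183, limma). On these 3 the nTreg means of 4.33, 5.13 and 4.26 lay under the filter level. The iTreg means were 5.59, 6.03 and 5.22, the last of them under that level too. The sizes of the differences from means under the filter level are not resolved. The 1 lower in both comparisons with nTreg was Gcnt1, the branching enzyme that selectin binding needs. Gcnt1 read 6.14 and 6.29 in ex-iTreg, 5.69 and 5.90 in iTreg and 7.35 and 6.77 in nTreg arrays, a difference of -0.85 ± 0.19 in ex-iTreg minus nTreg (adjusted p = 0.0144, limma) and -1.27 ± 0.19 in iTreg minus nTreg (adjusted p = 0.0048, limma). Its other probe set was lower in both as well (-1.11 and -1.46, adjusted p = 0.000119 and 0.000141, limma). On that probe set only the nTreg mean of 5.57 exceeded the filter level, against 4.46 in ex-iTreg and 4.11 in iTreg arrays. The filter thus let it in only where it was high, and the sizes of its differences are not resolved. On the brighter probe set the first call was lost without ex-iTreg pool 1 (adjusted p = 0.0824) or pool 2 (adjusted p = 0.0529). Selplg itself was higher in iTreg than in nTreg arrays, the opposite direction to Gcnt1. In ex-iTreg relative to nTreg arrays Selplg was lower, as Gcnt1 was (-0.28, adjusted p = 0.024, limma). Fut7, the fucosyltransferase that completes the selectin ligand, passed in none of the comparisons (between 5.97 and 6.30 in the 6 arrays). St3gal3, a sialyltransferase, was higher in ex-iTreg arrays (0.60 ± 0.13 against iTreg and 0.79 ± 0.13 against nTreg, adjusted p = 0.0125 and 0.00434, limma), the first not called without ex-iTreg pool 2 (0.49, adjusted p = 0.0767).

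The adhesion genes that act after these receptors were mixed. Of 7 tested selectin and integrin genes, 3 were higher and 1 lower in ex-iTreg relative to iTreg arrays (36.6% of all genes called). Relative to nTreg arrays 2 were higher and 1 lower (37.4% called). Itgb1, the shared beta 1 integrin chain, was higher in ex-iTreg arrays (0.80 ± 0.08 against iTreg, adjusted p = 0.000719, and 0.53 ± 0.08 against nTreg, adjusted p = 0.00294, limma). Itgb7, the beta chain of the gut homing integrin, was lower there (-0.55 ± 0.06 against iTreg, adjusted p = 0.00118, and -0.27 ± 0.06 against nTreg, adjusted p = 0.0168, limma), the second call being lost without nTreg pool 1 (adjusted p = 0.0528), ex-iTreg pool 1 (0.0742) or ex-iTreg pool 2 (0.0942). Cd44, a hyaluronan receptor of activated T cells, exceeded iTreg in ex-iTreg arrays by 0.63 ± 0.06 (adjusted p = 0.000702, limma).

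Genes that carry or switch off chemotactic signals were mixed as well. Of 30 tested, 4 were higher and 10 lower in ex-iTreg relative to iTreg arrays (36.6% of all genes were called). Relative to nTreg arrays 7 were higher and 8 lower (37.4% called). In iTreg relative to nTreg arrays 7 were higher and 4 lower (29.1% called). Rgs16, which shortens G protein signals of chemokine receptors, averaged 8.23 in ex-iTreg, 9.02 in iTreg and 10.67 in nTreg arrays, the order of Cxcr4 (-2.44 ± 0.09 in ex-iTreg minus nTreg, adjusted p = 1.1e-05, limma). Rgs2, another of these regulators, was lowest in iTreg arrays, at 11.92 and 11.93, against 12.46 and 12.47 in ex-iTreg and 12.60 and 12.58 in nTreg arrays. Pik3r5, a regulatory subunit of PI3K gamma, was higher in ex-iTreg arrays (0.50 ± 0.07 against iTreg, adjusted p = 0.00286, and 0.86 ± 0.07 against nTreg, adjusted p = 0.00027, limma).

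**Figure D4:**
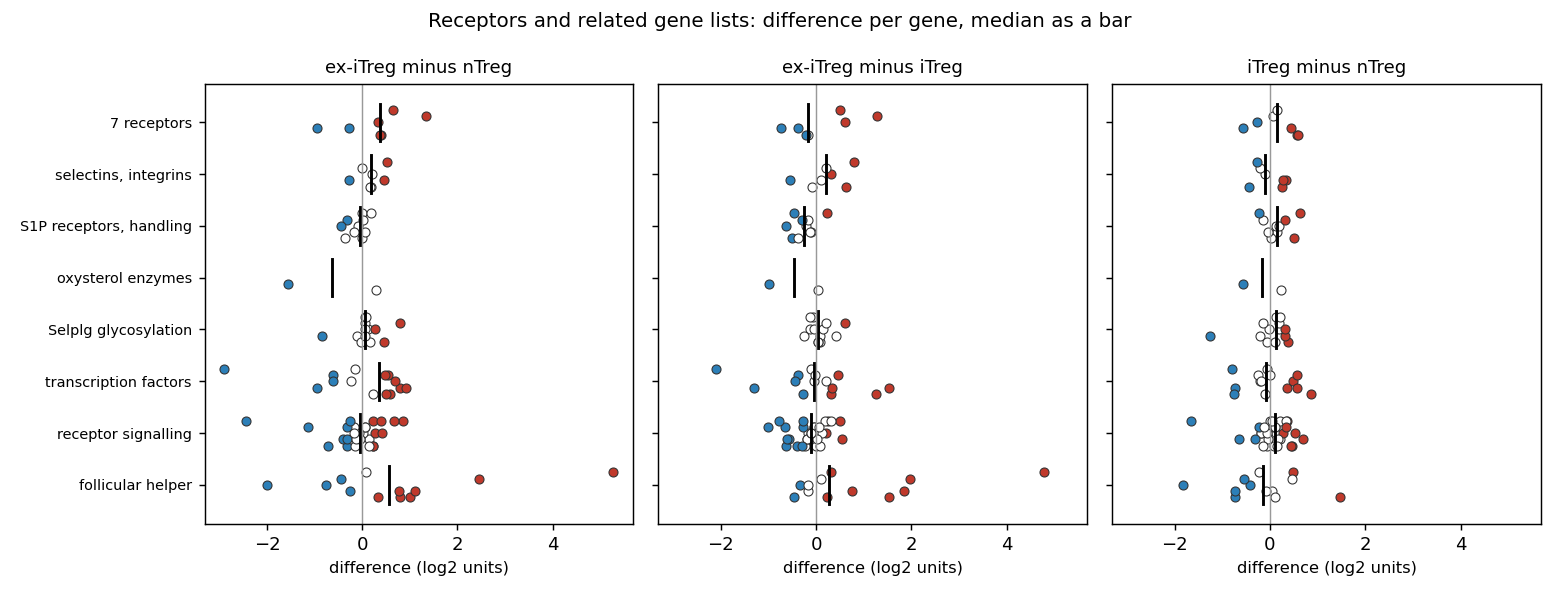
Difference per gene (horizontal axis, log2 units) for the 7 receptors and 7 related gene lists, 1 panel per comparison; red points were called higher, blue points lower, open points did not pass, and the black bar is the median of a list. The receptors spread to both sides of 0 in all 3 panels, with medians of 0.38, -0.17 and 0.15.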

How the data were processed

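The authors deposited log2 expression values for each probe set of each array, and RMA is the method named, per the submitters' processing notes; which software ran it is not given in the sources. RMA normalizes all arrays together, so a change in total RNA per cell would not show. Array medians lay between 5.47 and 5.49. Gene symbols came from the platform annotation, which named 1 gene for 34945 of 45037 probe sets other than controls, several for 932 and none for 9160; 34741 matched a RefSeq gene by Entrez identifier.

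Tested were probe sets that exceeded 5.48, the overall median, in 2 or more arrays. Each gene's values are those of its probe set of highest mean. limma 3.58.1 in R 4.3.3 fitted a mean per group over all 6 arrays (3 residual degrees of freedom). An exact test of 2 arrays against 2 cannot go below p = 0.333, so all calls rest on the pooled spread. The fit was tested on simulated data.

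The members and gene lists were chosen with earlier results of these data known. From each list the 4 genes with the largest absolute t over the 3 comparisons were named, plus Klf2, Cd69, S1pr2, Foxo1, Ch25h, Fut7 and Gcnt1 and, to say what was below the filter or how the marker lists stood, single further members. Alternatives changed the filter, normalization, variance model, arrays and weights. The comparison with conventional T cells is not analysed here, and 1 gene that the rule names is not reported here.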

Additional observations from a re-analysis of the deposited data

How the results depend on the processing

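The 24 differences of the receptor probe sets kept their direction in all 14 refits. For each comparison, the refits without either pool of the third group repeated the fit of only its own 4 arrays. The 14 are therefore not all separate, and counts of refits, here and above, hold these repeats. Of the refitted values, 315 stayed on their side of the threshold, 20 lost the call and 1 gained it; the losses fell on Cxcr5, Selplg, S1pr4 and the dimmer Gpr183 probe set. The number of receptors called was 4 to 5 in iTreg minus nTreg, 5 to 6 in ex-iTreg minus iTreg and 5 to 7 in ex-iTreg minus nTreg with 1 array left out; with a lone array in a group, its spread is assumed to be that of the other groups. A 2-fold minimum beside the test left 0, 1 and 1 receptors and 603, 859 and 1283 probe sets in those 3 comparisons. With 1 array left out, probe sets called were 3420 to 5380, 4971 to 9104 and 5243 to 7928. Among the named genes of the lists, the sign turned, with no call on either side, for S1pr2 in iTreg minus nTreg without nTreg pool 2 (0.07; range with 1 array left out -0.16 to 0.07), for Fut7 in ex-iTreg minus iTreg without iTreg pool 2 (0.03; -0.16 to 0.03) and in ex-iTreg minus nTreg without nTreg pool 1 (-0.06; -0.06 to 0.18), and for Cd69 in ex-iTreg minus nTreg without ex-iTreg pool 2 (-0.03; -0.03 to 0.13). The calls of Sphk2 in ex-iTreg minus iTreg and of Itgb1 in iTreg minus nTreg were lost in 8 and 10 of 14 refits. Pools of different groups share a number but no stated animal or day. Deviations of equally numbered pools correlated at -0.01, -0.09 and -0.04, so no strong shift shared across the arrays was seen. With 1 such difference per group, this cannot tell whether equally numbered pools came from the same mice or day. With the replicate block 5, 5 and 7 receptors and 5853, 8011 and 7814 probe sets were called, and S1pr4 in ex-iTreg minus iTreg lost its call (adjusted p = 0.068, limma). The number of arrays limits the precision.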
